A study of Mus musculus with 22 samples.

Results

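Acyl-CoA thioesterases were followed in mouse liver through 6 genes, Acot1, Acot2, Acot3, Acot4, Acot8 and Acot12, among 18193 genes measured on the same arrays. Every probe set annotated to any of the 6 was taken, which gave 11 probe sets: 10 name a single gene and 1 is annotated to both Acot1 and Acot2. Each gene is represented by its brightest probe set, averaged over the 22 arrays. Its other probe sets are given beside it for Trim24-/- against WT.

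RNA from 1 liver was hybridised to each of 22 Affymetrix oligonucleotide arrays. At 5 weeks of age there were 4 Trim24-/- Rara+/- animals, 4 Trim24-/- animals and 4 wild-type (WT) animals. At 14 weeks there were 5 Trim24-/- and 5 WT animals. Trim24 encodes a transcriptional co-regulator that binds nuclear receptors, and Rara encodes retinoic acid receptor alpha. Trim24 was disrupted in the germline, so every cell type of the liver and every other organ carries the mutation, and the Trim24-/- Rara+/- animals keep 1 intact Rara allele on top of it. All groups came from intercrosses on a mixed background of C57BL/6 (60%) and 129/Sv (40%). Animals are named here as in the labels. No group was Rara+/- with intact Trim24, so an effect of the missing Rara allele by itself cannot be told apart from one that needs the loss of Trim24. Values are signals on a linear scale, and differences were tested as log2(signal + 16), which understates changes of dim probe sets.

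Acyl-CoA thioesterases split acyl-CoA into a free fatty acid and coenzyme A, and so oppose the acyl-CoA synthetases. In the mouse, Acot1 acts in the cytosol on long-chain acyl-CoA, Acot2 is its mitochondrial counterpart, and Acot3 and Acot4 are peroxisomal relatives, Acot4 with a preference for succinyl-CoA. Acot8 is a peroxisomal thioesterase of broad range and of a different protein fold, and Acot12 is a cytosolic acetyl-CoA thioesterase of liver. Several of these genes, Acot1 foremost, are known in mouse liver for their induction by fasting and by agonists of PPARa, a nuclear receptor that partners the retinoid X receptor on DR1 elements.

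In the order along chromosome 12 of the RefSeq annotation, Acot2, Acot1, Acot4 and Acot3 follow one another and are followed by Acot5 and Acot6, whereas Acot8 lies on chromosome 2 and Acot12 on chromosome 13. The start regions of Acot1 and Acot2 are shown because these neighbours share a probe set that was called together with that of Acot1 at 5 weeks. Each window runs from 250 bases before to 50 bases after the gene's start, on the gene's strand, from RefSeq on GRCm38.p6: chr12:84009252-84009551 for Acot1 and chr12:83987611-83987910 for Acot2, both on the plus strand. Capitals mark the motif CCAAT, searched on both strands, which reads ATTGG where it lies on the other strand, and which 37.4% of 32851 promoters of this length hold.
Acot1 start region: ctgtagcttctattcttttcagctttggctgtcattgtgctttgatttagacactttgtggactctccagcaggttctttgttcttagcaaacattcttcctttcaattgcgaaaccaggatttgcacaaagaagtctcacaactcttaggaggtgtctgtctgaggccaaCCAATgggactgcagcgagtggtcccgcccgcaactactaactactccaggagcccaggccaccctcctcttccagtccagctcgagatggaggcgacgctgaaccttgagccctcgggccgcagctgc
Acot2 start region: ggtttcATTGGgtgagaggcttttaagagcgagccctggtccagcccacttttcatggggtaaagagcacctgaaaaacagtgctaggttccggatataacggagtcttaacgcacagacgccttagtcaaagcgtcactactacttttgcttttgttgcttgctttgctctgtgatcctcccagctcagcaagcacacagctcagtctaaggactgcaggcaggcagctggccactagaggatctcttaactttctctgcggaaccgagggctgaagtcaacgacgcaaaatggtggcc

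The DR1 element was searched on both strands as AGGTCANAGGTCA. None of the 6 members held it letter for letter, and 0.0396% of the 32851 promoters did. The closest stretch of 13 bases in each member's window is shown because DR1 is the element through which PPARa is known to bind. Capitals mark the bases that match the motif. The stretches of Acot3, Acot4 and Acot12 are written as read on the strand opposite to the gene.
Acot1: ctGTCtgAGGcCA
Acot2: AGcaCAcAGcTCA
Acot3: AcGgCAgAaGTCA
Acot4: cGGcCAaAGGTCA
Acot8: AGcaCAtcGacCA
Acot12: AGGTgAgAGGTCA
Acot12 differed from the motif at 1 of 12 fixed bases, and 0.554% of all promoters came as close. Acot4 differed at 2, with 3.86% of promoters as close, and Acot2 and Acot3 at 3, with 24.6%. Acot1 differed at 4, as close as 79.8% of promoters, and Acot8 at 5 (99.9%). The windows lay at chr12:84038129-84038428 for Acot4, chr12:84051894-84052193 for Acot3 and chr13:91741271-91741570 for Acot12, all on the plus strand, and at chr2:164804832-164805131 on the minus strand for Acot8. A second start of Acot3, with its window at chr12:84051901-84052200, gave the same closest stretch. These are matches of letters in short windows, and elements outside the windows were not searched.

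The arrays of one group correlated with one another at 0.948 to 0.992 over 8333 genes with a mean log2 level above 6. WT animal 90WT and Trim24-/- animal 6KO at 5 weeks stood apart from their groups in the same way, their deviations from the group means correlating at 0.72. The median signal per array was 19.7 to 25.9 at 14 weeks and 12.6 to 16.1 at 5 weeks. The 2 ages also differed in sex-linked signals: Xist, expressed from the inactive X chromosome of females, read 13.4 to 44.5 at 14 weeks and 948 to 2169 at 5 weeks, and the Y-linked Eif2s3y read 245 to 344 at 14 weeks and 0.350 to 6.59 at 5 weeks. The labels give no sex, and age, sex and the set of arrays cannot be told apart, so levels are not compared between ages. Trim24 signal averaged 450.4 ± 34.1 in Trim24-/- Rara+/-, 363 ± 84.7 in Trim24-/- and 317 ± 111 in WT livers at 5 weeks (SD, n = 4 each), and 235 ± 59.3 in Trim24-/- and 168 ± 24.2 in WT livers at 14 weeks (SD, n = 5 each). The sources used here do not say which part of the transcript those probes cover, so the signal, higher on average in the groups with disrupted Trim24, does not check the genotype. The hepatocyte markers summed to 32397 to 53084 on every array, and no marker on the 10 cell type and tissue lists examined was called in any comparison. In bulk liver, fewer cells of a type and less RNA per cell cannot be told apart.

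Acot1 was the member whose level passed the test at 5 weeks. Its signal in Trim24-/- Rara+/- livers was 697 in animal 54R, 839.6 in animal 66R, 1052 in animal 73R and 852 in animal 82R. In Trim24-/- livers it was 119.6 in animal 1KO, 291 in animal 6KO, 175 in animal 8KO and 369 in animal 37KO. In WT livers it was 571 in animal 2WT, 1021 in animal 44WT, 772 in animal 45WT and 602 in animal 90WT. Every Trim24-/- liver lay below every liver of the other 2 groups, and the Trim24-/- Rara+/- and WT livers overlapped.

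Acot1 averaged 239 ± 112 in Trim24-/- and 742 ± 206 in WT livers (SD, n = 4 each). The log2 difference was -1.65 ± 0.29 (SE, limma, adjusted p = 0.0271 among all genes), a 3.14-fold lower level in Trim24-/- livers. It was the fourth largest fall of the 18193 genes in that comparison. In Trim24-/- Rara+/- livers Acot1 averaged 860.2 ± 146 (SD, n = 4), and the log2 difference from Trim24-/- was 1.88 ± 0.29 (limma, adjusted p = 0.0275), a 3.69-fold higher level and the sixth largest rise. Against WT, the Trim24-/- Rara+/- livers differed by 0.23 ± 0.29 (limma, adjusted p = 0.909). The 95% interval was -0.39 to 0.86, so a difference between those limits was not excluded by these arrays. The comparisons of Trim24-/- with WT and of Trim24-/- Rara+/- with Trim24-/- use the same 4 Trim24-/- arrays.

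**Figure D1:**
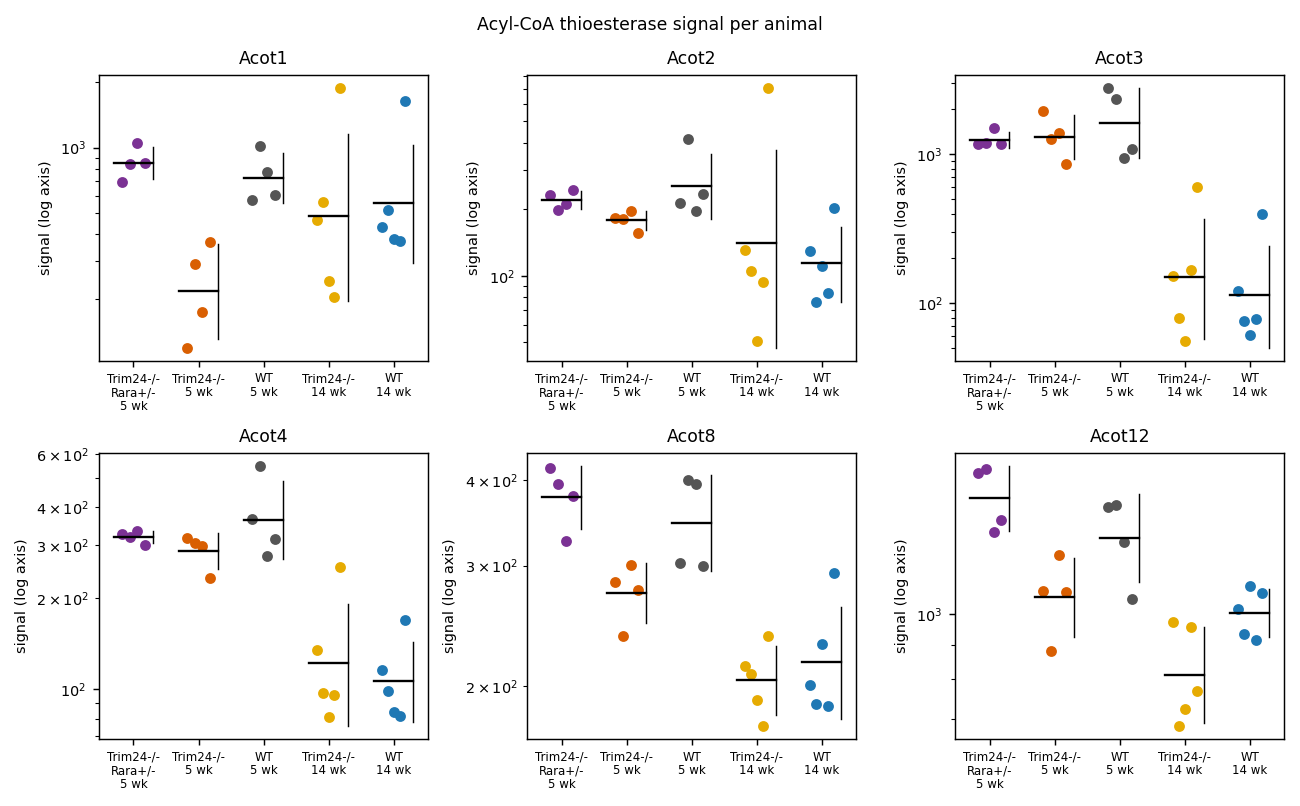
Signal of the 6 thioesterase genes in each animal (points, vertical log axis) for the 5 groups along the horizontal axis, with each group's mean on the log2(signal + 16) scale as a horizontal bar and 1 SD either side as a vertical line. Acot1 shows the 4 Trim24-/- livers of 5 weeks at 119.6 to 369, below the Trim24-/- Rara+/- livers at 697 to 1052 and the WT livers at 571 to 1021, while at 14 weeks 1 animal of each group stands well above the rest for Acot1, Acot2, Acot3 and Acot4.

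Both Acot1 calls depended on single arrays. The call against WT was lost without WT animal 44WT (log2 difference -1.49, limma adjusted p = 0.0907) or 45WT (-1.62, 0.0970), or without Trim24-/- animal 1KO (-1.38, 0.0588) or 8KO (-1.55, 0.0896), and the call against Trim24-/- was lost without WT animal 45WT, Trim24-/- animal 1KO or 8KO, or Trim24-/- Rara+/- animal 54R, 66R or 82R (1.62 to 1.98, adjusted p = 0.0529 to 0.127). The direction held in all 25 alternatives of both comparisons, at -1.89 to -1.38 and at 1.62 to 2.12.

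The probe set shared by Acot1 and Acot2 read the same pattern. In Trim24-/- Rara+/- livers it gave 987 to 1244, in Trim24-/- livers 185 to 391 and in WT livers 643 to 1265. It was lower in Trim24-/- than in WT by a log2 difference of -1.58 ± 0.25 (SE, limma, adjusted p = 0.0279 among all probe sets), and higher in Trim24-/- Rara+/- than in Trim24-/- by 1.95 ± 0.25 (adjusted p = 0.0303). The Acot1 probe set gave adjusted p = 0.0444 and adjusted p = 0.0461 in these 2 comparisons when all 45037 probe sets were tested by limma. Of 24 alternatives, the call of the shared probe set was lost in 12 against WT and in 11 against Trim24-/-, and that of the Acot1 probe set in 17 and in 18, with no change of sign. Leaving out single arrays lost the shared probe set's call against WT for WT animal 44WT or 45WT, Trim24-/- animal 1KO or 8KO, and Trim24-/- Rara+/- animal 54R, 66R or 82R. Against Trim24-/- it was lost without the same arrays other than 44WT. The Acot1 probe set lost its call without any single array other than Trim24-/- animal 6KO or 37KO, in both comparisons. Across the 12 arrays at 5 weeks the shared probe set correlated at 0.98 with the Acot1 probe set and at 0.55 with the brighter Acot2 probe set, which describes these arrays only, since they share the groups and the scaling. How much of the Acot1 and Acot2 signals comes from the other, closely related transcript was not tested.

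Acot2, the mitochondrial relative next to Acot1, did not pass the test. Its brighter probe set read 232, 198, 211 and 244 in Trim24-/- Rara+/- livers, 183, 182, 196 and 156 in Trim24-/- livers, and 214, 416, 198 and 235 in WT livers. The Trim24-/- livers again lay below both other groups. The log2 difference from WT was -0.48 ± 0.19 (SE, limma, unadjusted p = 0.0243, adjusted p = 0.361). Without WT animal 44WT, the brightest for Acot2, it was -0.25. The second Acot2 probe set was dim, at 4.54 to 78.7 over all 22 arrays, and gave -0.46 ± 0.26 (limma, adjusted p = 0.667).

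**Figure D2:**
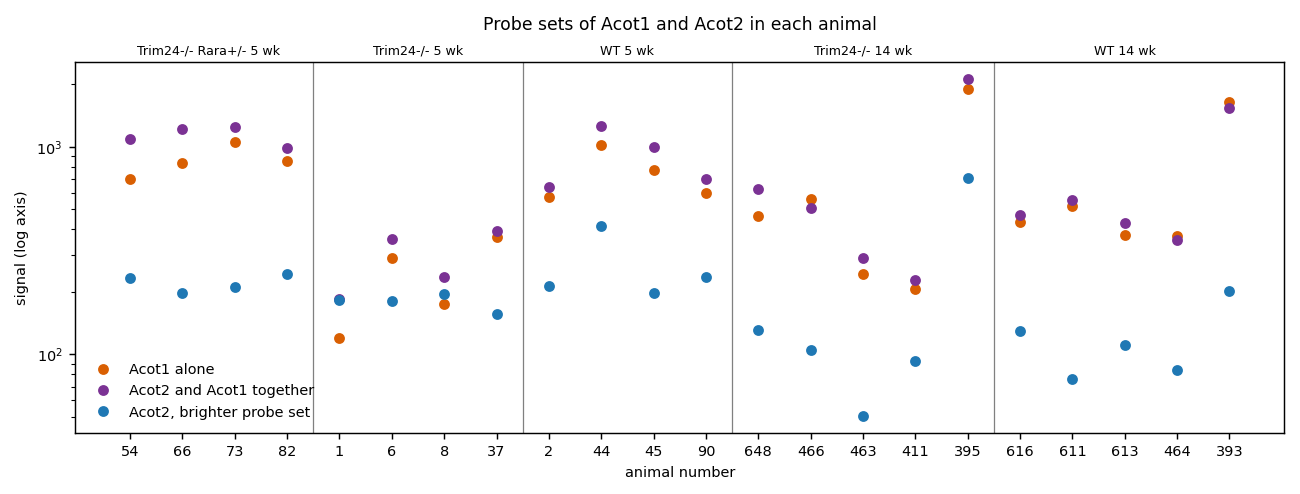
Signal (vertical log axis) of the Acot1 probe set, the probe set annotated to Acot2 and Acot1 together, and the brighter Acot2 probe set in each of the 22 animals, which are numbered along the horizontal axis and separated by group. The shared probe set follows the Acot1 probe set from animal to animal, and both lie between 119.6 and 391 in the Trim24-/- livers of 5 weeks, where Acot2 stays between 156 and 196.

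The peroxisomal members of the chromosome 12 cluster did not pass. Acot3 read 1176, 1179, 1504 and 1173 in Trim24-/- Rara+/- livers, 1937, 1264, 1387 and 857 in Trim24-/- livers and 2794, 2347, 948 and 1084 in WT livers, so that the 3 groups overlapped and WT spread the most. Its log2 difference between Trim24-/- and WT was -0.30 ± 0.33 (SE, limma, adjusted p = 0.802). Acot4, the succinyl-CoA thioesterase, read 299 to 334 in Trim24-/- Rara+/-, 233 to 316 in Trim24-/- and 276 to 547 in WT livers, with a difference of -0.33 ± 0.17 (adjusted p = 0.532). The second Acot4 probe set gave -0.58 ± 0.22 (limma over all probe sets, unadjusted p = 0.0225, adjusted p = 0.442).

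Acot8 and Acot12, outside the cluster, were lowest in Trim24-/- livers on average but overlapped with WT. Acot8 read 417, 395.49, 326 and 379 in Trim24-/- Rara+/- livers, 284, 237, 300.3 and 276 in Trim24-/- livers and 303, 401, 396 and 299 in WT livers. Trim24-/- differed from WT by -0.32 ± 0.13 (SE, limma, unadjusted p = 0.0250, adjusted p = 0.366). Acot12, the acetyl-CoA thioesterase, read 1616, 1638, 1319 and 1376 in Trim24-/- Rara+/- livers, 1082, 880.4, 1219 and 1075 in Trim24-/- livers and 1439.7, 1445, 1276 and 1050.3 in WT livers. Its difference between Trim24-/- and WT was -0.29 ± 0.14 (limma, adjusted p = 0.477), and a second probe set gave -0.39 ± 0.11 (limma over all probe sets, unadjusted p = 0.00462, adjusted p = 0.253). The third Acot12 probe set stayed at 1.14 to 8.05 on all arrays, below the added constant of 16.

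Both genes were higher in every Trim24-/- Rara+/- liver than in any Trim24-/- liver, without passing the adjustment. The log2 difference was 0.45 ± 0.13 for Acot8 (SE, limma, unadjusted p = 0.00420, adjusted p = 0.184) and 0.48 ± 0.14 for Acot12 (unadjusted p = 0.00373, adjusted p = 0.176). The groups were also separate for Acot2, at 0.28 ± 0.19 (limma, adjusted p = 0.615). Acot4 differed by 0.15 ± 0.17 (limma, adjusted p = 0.818) and Acot3 by -0.06 ± 0.33 (limma, adjusted p = 0.973).

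The members were chosen with earlier results of these data known, so the following counts describe them and do not test the family. Counted together, 1 of 6 members was called between Trim24-/- and WT at 5 weeks, where 0.599% of all genes were, and 3 of 6 had an unadjusted p under 0.05, against 10.8% of genes. The groups did not overlap for 2 of 6, against 5.52% of genes. Of the 11 probe sets 2 were called, against 0.233% of all probe sets. Both are annotated to Acot1, 1 of them together with Acot2. The median log2 difference was -0.33 over the members, all 6 of them below 0, and -0.01 over all genes, of which 52.1% were below 0. Between Trim24-/- Rara+/- and Trim24-/-, 1 of 6 members was called (0.143% of genes), 3 had an unadjusted p under 0.05 (11.5%), 4 did not overlap (8.46%) and 2 of 11 probe sets were called (0.0644%), with medians of 0.36 over the members and -0.01 over all genes. Between Trim24-/- Rara+/- and WT, no member was called (0.055% of genes), none of 11 probe sets was called (0.0311%), none had an unadjusted p under 0.05 (7.44%) and all 6 overlapped (4.62% of genes did not). The medians there were -0.03 over the members and -0.02 over all genes.

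**Figure D3:**
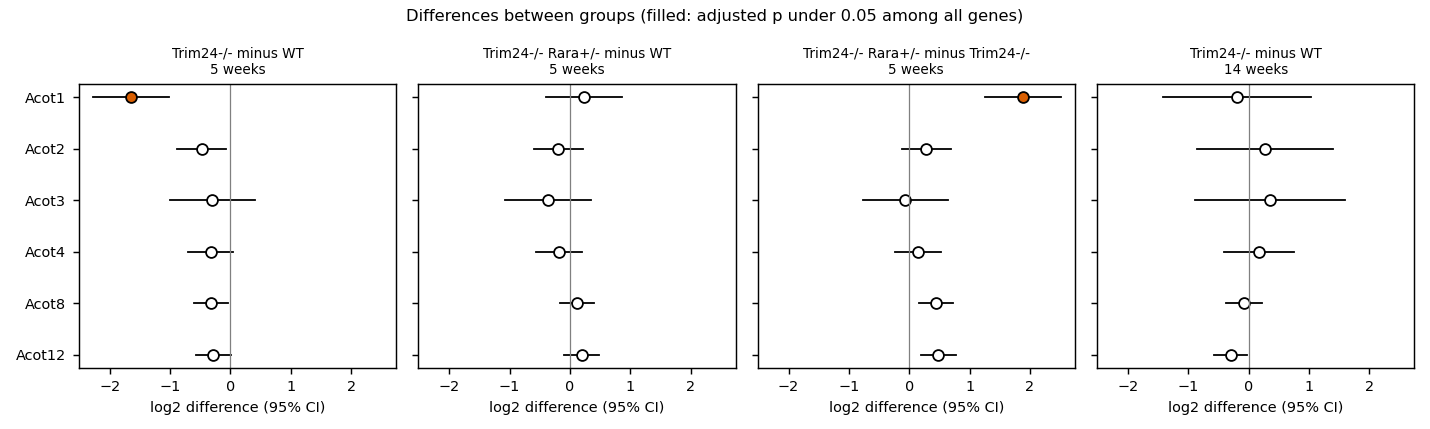
Log2 difference (horizontal axis, point) with its 95% confidence interval (line) for the 6 members in the 4 comparisons between groups, from the limma fits; filled points passed an adjusted p of 0.05 among all genes. Acot1 is filled at -1.65 for Trim24-/- minus WT and at 1.88 for Trim24-/- Rara+/- minus Trim24-/- at 5 weeks, and its interval at 14 weeks spans -1.42 to 1.03.

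At 14 weeks no member separated Trim24-/- from WT. Acot1 read 466.03, 563, 243, 206 and 1893 in Trim24-/- livers (liver_648M, liver_466M, liver_463M, liver_411M and liver_395M) and 432, 516, 377, 371 and 1640 in WT livers (liver_616WT, liver_611WT, liver_613WT, liver_464WT and liver_393WT). A single animal in each group, Trim24-/- liver_395M and WT liver_393WT, was several times brighter than the others. The log2 difference was -0.20 ± 0.56 (SE, limma, adjusted p = 0.963), its 95% interval of -1.42 to 1.03 being wide. It was -0.68 without liver_395M, 0.19 without liver_393WT and -0.30 without both, a choice made after the arrays were seen, and it also turned positive without Trim24-/- liver_463M (0.04) or liver_411M (0.10).

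The same 2 animals were the brightest of their groups for most of the family. Acot2 read 712 in liver_395M and 50.6 to 132 in the other Trim24-/- livers, and 202 in liver_393WT and 75.9 to 129.7 in the other WT livers. Acot3 read 598 in liver_395M and 55.9 to 167 in the other Trim24-/- livers, and 397 in liver_393WT and 61.6 to 120.2 in the other WT livers. Acot4 read 254 in liver_395M and 81.1 to 135 in the other Trim24-/- livers, and 169.8 in liver_393WT and 81.7 to 116 in the other WT livers. Acot8 showed the same order with a smaller gap, at 236 against 175 to 214 in Trim24-/- and 292 against 187 to 231 in WT livers. Acot12 did not, reading 770.1 in liver_395M among 683 to 972 in Trim24-/- livers and 1073 in liver_393WT among 915 to 1098 in WT livers.

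These 2 animals were thus the highest of their groups for 5 of 6 members, and for 8.08% of all genes. They were the highest for 11 of 18 genes listed as other PPARa targets and omega-hydroxylation, Cyp4a14 among them, and not for the remaining 7. The figures were 3 of 22 genes of peroxisomal and 4 of 19 of mitochondrial fatty acid oxidation. The pattern was noticed in the data. Across the 10 arrays at 14 weeks Acot1 correlated at 0.84 with Acot2, 0.79 with Acot3 and 0.88 with Acot4. Without liver_393WT and liver_395M these values were 0.47, -0.12 and 0.43, so the first figures describe mainly those 2 livers.

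**Figure D4:**
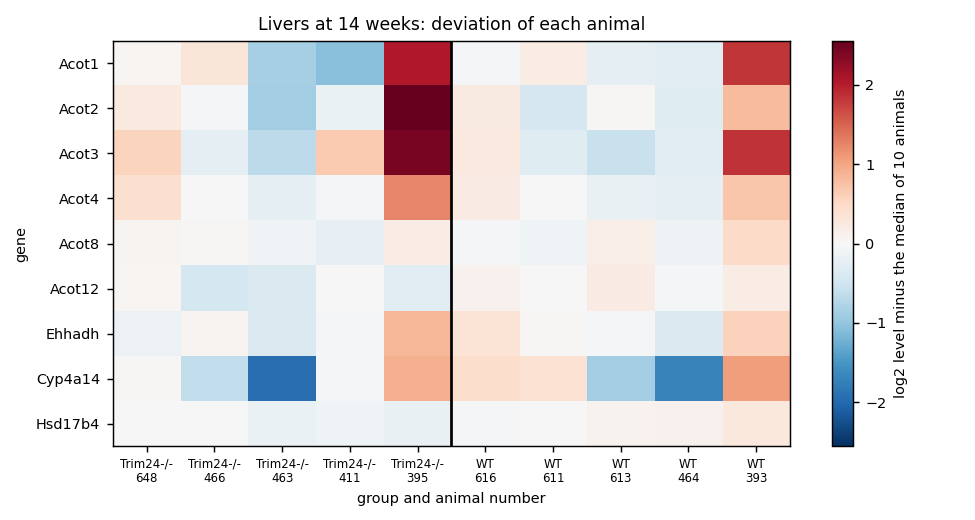
Deviation of each 14-week animal (columns, Trim24-/- left of the line and WT right of it) from the median of the 10 animals on the log2(signal + 16) scale, for the 6 members and for Ehhadh, Cyp4a14 and Hsd17b4 (rows); red is above and blue below the median. Trim24-/- liver_395M and WT liver_393WT are red for Acot1, Acot2, Acot3 and Acot4. On the colour scale shared by all rows, the rows of Acot8 and Acot12 stay pale.

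The other 14-week differences between Trim24-/- and WT were 0.27 ± 0.52 for Acot2, 0.36 ± 0.57 for Acot3, 0.17 ± 0.27 for Acot4 and -0.08 ± 0.14 for Acot8 (log2, SE, limma, adjusted p = 0.921 to 0.936). Without liver_395M the first 3 were below 0, at -0.28, -0.11 and -0.07, and without liver_393WT Acot8 was at 0.02. The second Acot4 probe set went the other way from the first, at -0.31 ± 0.21, and the mean of all Acot4 probe sets gave -0.07. The second Acot2 probe set gave 0.15 ± 0.25, and the probe set shared by Acot1 and Acot2 gave -0.08 ± 0.55. Acot12 was lower on average, at 821 ± 134 in Trim24-/- and 1007 ± 81.7 in WT livers (SD, n = 5 each), with a log2 difference of -0.30 ± 0.13 (limma, unadjusted p = 0.0340, adjusted p = 0.558), while its second probe set gave -0.12 ± 0.15.

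Of the 6 members none was called at 14 weeks (0.242% of genes), 1 had an unadjusted p under 0.05 (8.23%), none was without overlap (1.78%) and none of the 11 probe sets was called (0.124%). The median over the members was 0.04, and 0.00 over all genes. Kupffer cell and macrophage markers summed to 3020 to 5339 in Trim24-/- and 2546 to 3303 in WT livers at 14 weeks, with all 7 estimates above 0 and none called, and their part in these values was not tested.

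Whether the genotype difference itself differed between the 14-week and 5-week arrays was tested as the 14-week difference minus the 5-week difference. Age, the sex-linked signals and the set of arrays cannot be told apart in this contrast. For Acot1 this was 1.45 ± 0.69 on the log2 scale (SE, limma, unadjusted p = 0.0468, adjusted p = 0.774), so the 2 differences were not shown to differ. None of the 6 members was called in this test (0.033% of genes), and 1 had an unadjusted p under 0.05 (6.39%). The other members had values of 0.75 ± 0.61 for Acot2, 0.66 ± 0.72 for Acot3, 0.50 ± 0.34 for Acot4, 0.24 ± 0.19 for Acot8 and -0.01 ± 0.18 for Acot12.

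Within the family the genes did not vary as 1 block. Over the 12 arrays at 5 weeks the highest correlations of log2 levels were 0.89 between Acot2 and Acot4, 0.86 between Acot8 and Acot12, and 0.76 between Acot3 and Acot4. Acot1 correlated at 0.69 with Acot8, 0.61 with Acot12 and 0.54 with Acot2, but at -0.06 with Acot3. These arrays share 3 genotypes and a scaling, so the values describe the arrays. Among 8327 genes with a mean log2 level above 6, the 5 whose levels followed Acot1 most closely at 5 weeks were the glycolytic enzyme Pgk1 (r = 0.94), the GDNF receptor Gfra1 (0.91), the circadian phosphatase Noct (0.91), cytochrome c, Cycs (0.91), and the intracellular cation channel Tmem38b (0.90). Over the 10 arrays at 14 weeks the same genes gave 0.20, 0.67, -0.75, 0.51 and -0.28 with Acot1.

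Genes that work beside the thioesterases were counted from 7 lists with 117 measured genes. In peroxisomal fatty acid oxidation, 2 of 22 genes were called lower in Trim24-/- than in WT livers at 5 weeks and none higher. The share of all genes called in that comparison was 0.599%. Of the 22 estimates 18 were below 0, with a list median of -0.23. Ehhadh, the bifunctional enzyme of peroxisomal beta-oxidation, read 1609 to 2222 in Trim24-/- and 2774 to 4096 in WT livers, a log2 difference of -0.76 ± 0.14 (SE, limma, adjusted p = 0.0351). Hsd17b4, the D-bifunctional enzyme, read 2139 to 2436 in Trim24-/- and 2933 to 3719 in WT livers, a difference of -0.50 ± 0.10 (adjusted p = 0.0499). The Trim24-/- and WT livers did not overlap for either gene, as for 5.52% of all genes.

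Among 18 genes listed as other PPARa targets and omega-hydroxylation, Cyp4a14 alone was called. It read 5589 to 6269.5 in Trim24-/- Rara+/-, 2284 to 3475 in Trim24-/- and 4856 to 5633 in WT livers, with a log2 difference of -0.82 ± 0.13 between Trim24-/- and WT (SE, limma, adjusted p = 0.0191) and of 0.97 ± 0.13 between Trim24-/- Rara+/- and Trim24-/- (adjusted p = 0.0226). Of 25 alternatives, the call against WT was lost in 18 for Ehhadh and 19 for Hsd17b4. Of the 12 arrays left out in turn, the exceptions that kept the call were WT animal 90WT for both genes and Trim24-/- Rara+/- animal 73R for Ehhadh; the log2 difference stayed at -0.85 to -0.64 for Ehhadh and at -0.54 to -0.43 for Hsd17b4 where the call was lost. For Cyp4a14 it was lost in 7 against WT, including without WT animal 44WT (-0.79) or 45WT (-0.82) or Trim24-/- animal 8KO (-0.86), and in 8 against Trim24-/-, including without Trim24-/- animal 8KO (1.01) or Trim24-/- Rara+/- animal 54R (0.99), 66R (0.95) or 82R (0.997).

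In the remaining lists no gene was called at 5 weeks. All 19 genes of mitochondrial fatty acid oxidation had estimates below 0 in Trim24-/- against WT livers, with a median of -0.16, and all 19 were above 0 in Trim24-/- Rara+/- against Trim24-/- livers, with a median of 0.23; these genes share arrays and the comparisons share the Trim24-/- livers. The medians between Trim24-/- and WT were -0.07 for 13 other acyl-CoA thioesterases, -0.10 for 17 genes of acyl-CoA synthesis and fatty acid uptake, 0.01 for 13 regulators around PPARa and -0.06 for 15 genes of fatty acid synthesis and acetyl-CoA use. Unadjusted p in this comparison was under 0.05 for 6 of 22 peroxisomal genes, 3 of 19 mitochondrial genes and 4 of 18 genes of other PPARa targets and omega-hydroxylation. It was under 0.05 for 3 of 13 other thioesterases, and the log2 differences of these 3 were 0.45, 0.53 and -0.30. The count was 1 of 17 for acyl-CoA synthesis and uptake and 1 of 13 for regulators. For fatty acid synthesis and acetyl-CoA use it was 1 of 15, and over all genes the share was 10.8%. Between Trim24-/- Rara+/- and WT at 5 weeks, and between Trim24-/- and WT at 14 weeks, no gene of the 7 lists was called. The other 10 listed genes were not analysed here.

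**Figure D5:**
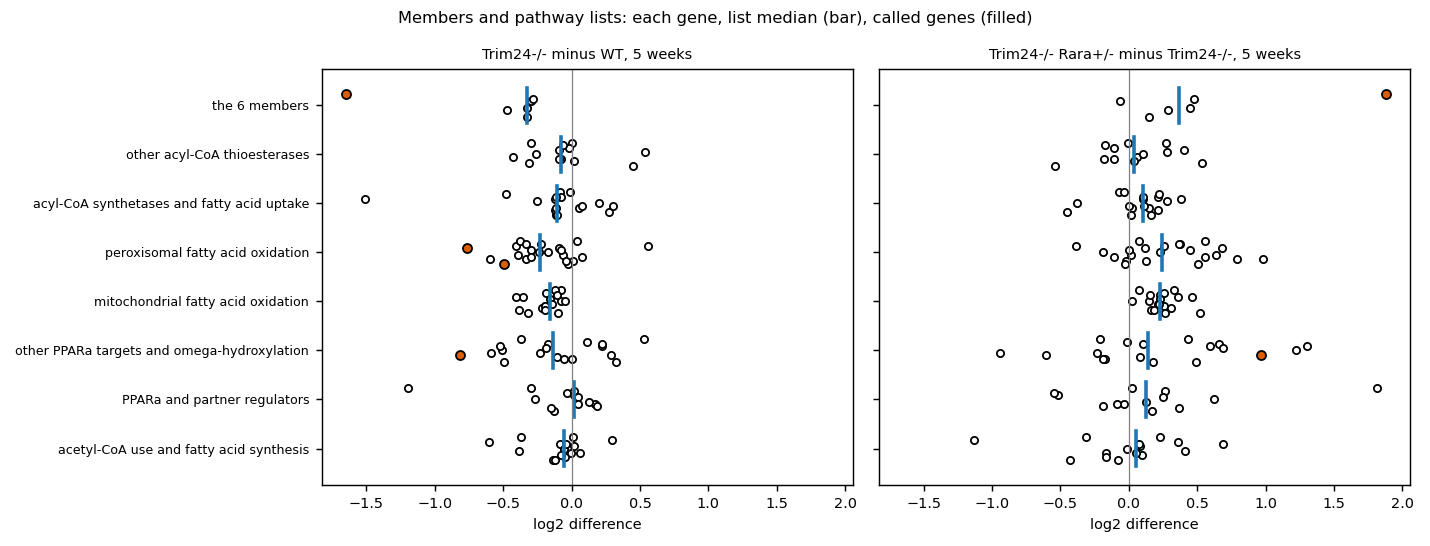
Log2 difference (horizontal axis) of each gene of the family and of 7 lists of related genes (rows) at 5 weeks, for Trim24-/- minus WT on the left and Trim24-/- Rara+/- minus Trim24-/- on the right. Points are genes, filled where the adjusted p among all genes was under 0.05, and bars are list medians; in the row of the 6 members the filled point is Acot1, at -1.65 and 1.88, and the members' medians are -0.33 and 0.36.

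Markers of other cell types were set beside the 5-week values. Liver endothelium markers summed to 1520.2 to 1823 in Trim24-/- Rara+/-, 1000.2 to 1647 in Trim24-/- and 1158 to 1725 in WT livers. Of these 5 markers none was called, 0 had estimates above 0 between Trim24-/- and WT (median -0.16), and all 5 were above 0 between Trim24-/- Rara+/- and Trim24-/- (median 0.30), the same directions as Acot1. Kupffer cell and macrophage markers summed to 4036 to 6498 in Trim24-/- Rara+/-, 3433 to 7528 in Trim24-/- and 2954 to 5682 in WT livers, with 6 of 7 estimates above 0 between Trim24-/- and WT and 2 of 7 between Trim24-/- Rara+/- and Trim24-/-. T and NK cell markers summed to 22.3 to 67.6 in Trim24-/- Rara+/-, 41.4 to 144 in Trim24-/- and 30.9 to 45.4 in WT livers, with Cd8a and Nkg7 below the added constant on all arrays of the Trim24-/- Rara+/- and WT groups. All 4 T and NK cell estimates were above 0 between Trim24-/- and WT, and 0 of 4 between Trim24-/- Rara+/- and Trim24-/-, with none called. Hepatocyte markers summed to 41509.7 to 47814 in Trim24-/- Rara+/-, 38868 to 52426 in Trim24-/- and 45861 to 53084 in WT livers. Of these 5 markers 0 were above 0 between Trim24-/- and WT (median -0.07), and 1 between Trim24-/- Rara+/- and Trim24-/- (median -0.06). In the same 2 comparisons, 3 and 0 of 4 cholangiocyte markers, 3 and 4 of 5 stellate cell markers and 0 and 2 of 2 skeletal muscle markers were above 0. The part of these markers in the Acot1 values was not tested.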

How the data were processed

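The authors deposited a table of linear intensity values, with 45101 probe sets in rows and 22 arrays in columns. Per the labels' protocols, liver RNA was column-purified, amplified and biotin-labelled. The 2% trimmed mean was 100.001 on every array, which shows a scaling step; its software is not given in these sources. Control probe sets, 64 in number, were left out, and 9160 probe sets were not named. Groups came from the labels, and p-values measure the spread between animals.

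Here, limma 3.58.1 (lmFit, then eBayes) was run under R 4.3.3 on the log2 of the signal plus 16. The 5-week comparisons came from 1 fit of 12 arrays, the 14-week comparison from 10 arrays and the interaction from 22, without covariates. Calls required an adjusted p (Benjamini-Hochberg) below 0.05, over 18193 genes or over 45037 probe sets. A gene was read from its brightest probe set with 1 symbol, a choice that matters for 9010 genes. Named were all members, Trim24, Rara, up to 4 called genes of each list with the smallest adjusted p, and the 5 genes most correlated with Acot1; Xist, Eif2s3y, Cd8a and Nkg7 are named outside that rule, after their values were seen. Rara was dim, at 18.2 ± 9.97 in Trim24-/- Rara+/-, 13.7 ± 8.45 in Trim24-/- and 12.3 ± 11.7 in WT livers (SD, n = 4). The members and lists were chosen with earlier results of these data known. The scripts were tested on simulated data. Alternatives varied the normalisation, pseudocount, brightness filter, variance model, probe-set choice, arrays fitted and arrays left out. The number of arrays limits the precision.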

Additional observations from a re-analysis of the deposited data

Results flagged for a closer look

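Acot1 in WT liver_393WT at 14 weeks, at a signal of 1640, lay far from the other 4 WT livers, whose highest was 516. Acot3 in Trim24-/- Rara+/- animal 73R at 5 weeks, at 1504, stood apart from the other 3 livers of its group, which read 1173 to 1179. In all, 55 combinations of probe set and group were examined with Dixon's criterion and 2 met it, where chance flags about 1 in 20.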

How the results depend on the processing

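The count of member genes called was 1 at 5 weeks for Trim24-/- against WT, and 1 for Trim24-/- Rara+/- against Trim24-/-. In each it was 0 with a pseudocount of 1, with only the compared groups fitted, with all 22 arrays fitted, and, in 2 alternatives added once the data had been seen, with Trim24-/- Rara+/- animals 54R, 66R and 82R averaged or Trim24-/- animals 1KO and 8KO averaged; leaving out 1 array gave 0 to 1. The count of called member probe sets, 2 in each, was 0 under the same settings. It was 1 with a pseudocount of 64, and 1 with quantile normalisation between Trim24-/- Rara+/- and Trim24-/-. It was also 1 without both WT animal 90WT and Trim24-/- animal 6KO, a further alternative added once the data had been seen. Leaving out 1 array gave 0 to 2. For Acot1 the adjusted p of limma was 0.0839, 0.122, 0.195, 0.0771 and 0.0779 under the first 5 settings against WT, and 0.124, 0.0610, 0.109, 0.650 and 0.0891 against Trim24-/-. The averaged arrays correlated with one another at 0.987 to 0.992 for 54R, 66R and 82R and at 0.988 for 1KO and 8KO. The 28 other member results passed in none of 700 fits, and 9 of them turned sign in 24 fits. The animal labels used here give no litter or other pairing between groups, so no paired analysis was made. The cause of these losses was not tested. Dim signal limits Rara, the second Acot2 probe set and the third Acot12 probe set, and 4 or 5 arrays a group limit the rest.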
